A study of Homo sapiens with 24 samples.

Results

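The comparison described here is the synthetic guide experiment: 3 libraries in which the circular RNA CDR1as, also called ciRS-7, was targeted (KD) against 3 libraries with a non-targeting control (NTC). These 6 of the 24 libraries of the study were chosen by their sample titles, and all belong to cells labelled SH-SY5Y, a human neuroblastoma line. The study compared 4 knockdown setups, each with its own NTC, to measure unintended changes of messenger RNA. In this setup the guide for the RNA-cutting enzyme CasRx was made by chemical synthesis, per the series title, where the gRNA and pre-gRNA setups expressed it from a plasmid and the agoshRNA setup expressed a short hairpin RNA without CasRx. The labels describe a CasRx-GFP plasmid transfected with Lipofectamine for the plasmid guides and RNA harvest 48 h after transfection, but not how the synthetic guide was delivered. Each library carries a letter, A, B or C, in the deposited column names. Nothing in the labels says that the 3 samples of a group came from separate cultures, so p-values measure the spread between these samples, which may be technical.

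Poly(A) RNA was sequenced without strand information. The libraries held between 10994974 and 15204685 reads counted on genes, and mitochondrial genes took 3.62% to 4.03% of them. Of 60658 genes in the table, 18513 reached 10 counts in 3 or more libraries and were tested. In a principal component analysis both A libraries stood apart from the rest, and KD library C from the other 5. The labelled cell type did not match all of its markers. Of 17 noradrenergic neuroblastoma markers, 6 had at most 3 counts in any of the 6 libraries, among them PHOX2A, STMN2, ELAVL4, DBH and DDC, and TH was at 0 in every library. The list had 5 members above 10 CPM, among them GATA2 and NEFM, at means of 20.4 and 15.4 TPM (a level scaled to depth and to transcript length). Of 13 kidney-lineage genes described in the line HEK293, 10 exceeded 10 CPM (counts scaled to library depth), HOXD10 and HOXA9 reached 95.3 and 90.3 TPM, and 2, PAX8 and CDH6, had at most 3 counts. Of 14 mesenchymal neuroblastoma genes, 7 exceeded 10 CPM, with VIM at 388 TPM, and 2, CD44 and IFI16, had at most 3 counts. The summed level of the noradrenergic markers ranged from 124 to 137 CPM in KD and from 128 to 145 CPM in NTC. That of the kidney-lineage genes ranged from 466 to 469 CPM in KD and from 418 to 474 CPM in NTC, and that of the mesenchymal genes from 1040 to 1160 CPM in KD and from 988 to 1100 CPM in NTC. No marker on these lists had an unadjusted p under 0.05 between KD and NTC, and the part of cell identity in the results was not tested.

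CDR1as is a circular RNA made by back-splicing, best known in neurons, that carries many binding sites for the microRNA miR-7. A second microRNA, miR-671, directs cleavage of the circle, and the long non-coding RNA Cyrano (OIP5-AS1) triggers the decay of miR-7. A microRNA in an Argonaute protein recognises targets mainly through its seed, the bases at positions 2 to 8, and lowers their messenger RNAs. CasRx is a Cas13 enzyme that cuts RNA at sites matched by its guide.

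The mature miR-7 sequence from RefSeq is shown with its seed in capitals, beside bases 101 to 300 of a GENCODE 29 transcript that runs through the CDR1as region, LINC00632-206, with each exact match to the seed, GTCTTCC, in capitals. They are shown because they define the miR-7 network that the knockdown addresses.
hsa-miR-7-5p: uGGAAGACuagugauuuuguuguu
LINC00632-206: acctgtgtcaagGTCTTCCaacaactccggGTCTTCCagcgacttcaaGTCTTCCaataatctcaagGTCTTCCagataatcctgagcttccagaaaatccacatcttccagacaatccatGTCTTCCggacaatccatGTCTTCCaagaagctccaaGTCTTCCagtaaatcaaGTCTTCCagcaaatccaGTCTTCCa
The stretch holds 9 matches and the whole transcript, of 1878 bases, holds 67. The 789 bases of the annotated CDR1 transcript are the exact reverse complement of bases 491 to 1279 of LINC00632-206. In the coordinates of the count table, CDR1 overlaps CDR1-AS on the opposite strand, and without strand information reads of that pair cannot be told apart.

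No difference between arms was detected for the counted part of LINC00632, the host transcript of CDR1as. The counted interval ends at 139854844, before the annotated CDR1-AS interval starts at 139865341. Its counts therefore do not cover the CDR1as region, although the GENCODE transcript shown above runs through that region. LINC00632 (hg19, chromosome X, 139791932 to 139854844, plus strand) had normalised counts of 86.7, 96.5 and 116 in KD libraries A, B and C and of 65.2, 119 and 118 in the NTC libraries. The NTC libraries held the lowest value and the 2 highest, so the groups overlapped. The log2 fold change was -0.02 (SE 0.26), and an exact permutation test on log2 CPM gave p = 0.8, two-sided, where 3 against 3 libraries cannot go below 0.1. CDR1 (chromosome X, 139864570 to 139867036, minus strand) had normalised counts of 10.6, 7.59 and 7.22 in KD and 17.6, 10.4 and 5.37 in NTC. Its log2 fold change was -0.39 (SE 0.64; exact permutation p = 0.7), and without NTC library A it was 0.12. The annotated CDR1-AS interval (139865341 to 139866825, plus strand) had 5.78, 5.42 and 4.82 normalised counts in KD and 13.4, 8.34 and 4.47 in NTC. NTC library A was the highest of the 6 at both CDR1 and CDR1-AS, and the groups overlapped at both. CDR1-AS missed the filter on low counts (exact permutation p = 0.4). A circle has no poly(A) tail, and the count tables do not separate back-spliced from linear reads, so these values do not check how far the circle itself was depleted.

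No gene passed an adjusted p of 0.05 between KD and NTC with DESeq2 (percent called 0.0 of the 18513 genes tested), with edgeR's quasi-likelihood test or with limma-voom. At an unadjusted p under 0.05 there were 55 genes with DESeq2 (0.297% of genes), 26 higher in KD (0.14%) and 29 lower (0.157%), against 176 with edgeR (0.951%) and 171 with limma-voom. Each of these shares is below the rate that a threshold of 0.05 gives by itself with no difference between arms. The median absolute log2 fold change was 0.094, below the median SE of 0.205. Of the 13573 genes with a mean of at least 50 normalised counts, none differed by more than 1 on the log2 scale, and the largest difference was 0.71. The letter in the model lowered the median SE to 0.178. Deviations from the group means correlated at 0.7 between the A libraries of both arms, against 0.35 for B and 0.32 for C, and these last values were close to those between KD B and NTC C (0.33) and KD C and NTC B (0.20). With the letter as a term, DESeq2 called 1 gene, MALAT1 (0.0054% of genes), and gave an unadjusted p under 0.05 to 241 genes (1.3%), 136 higher (0.735%) and 105 lower (0.567%). In DESeq2 the adjusted p was 1.0 for every gene without the letter and for every gene but MALAT1 with it, so values of single genes below are given with their SE and stand for differences that did not pass the test. edgeR with the letter gave 1134 genes an unadjusted p under 0.05 (6.13%) and called 9 (0.0486%): MALAT1, SNORD21, SNORD14C, SNORD14D, SNORA25, SNORA7B, WDR38, AC005387.3 and RP11-245J9.6. The last, a gene of few counts on chromosome 3, had normalised counts of 16.4, 13.0 and 30.1 in KD and 4.18, 9.39 and 2.68 in NTC. Every KD library lay above every NTC library for 481 genes (2.6%) and below for 459 (2.48%). With no difference between arms, 3 against 3 libraries separate fully at a rate of 0.1, and both directions together lay below that rate.

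**Figure D1:**
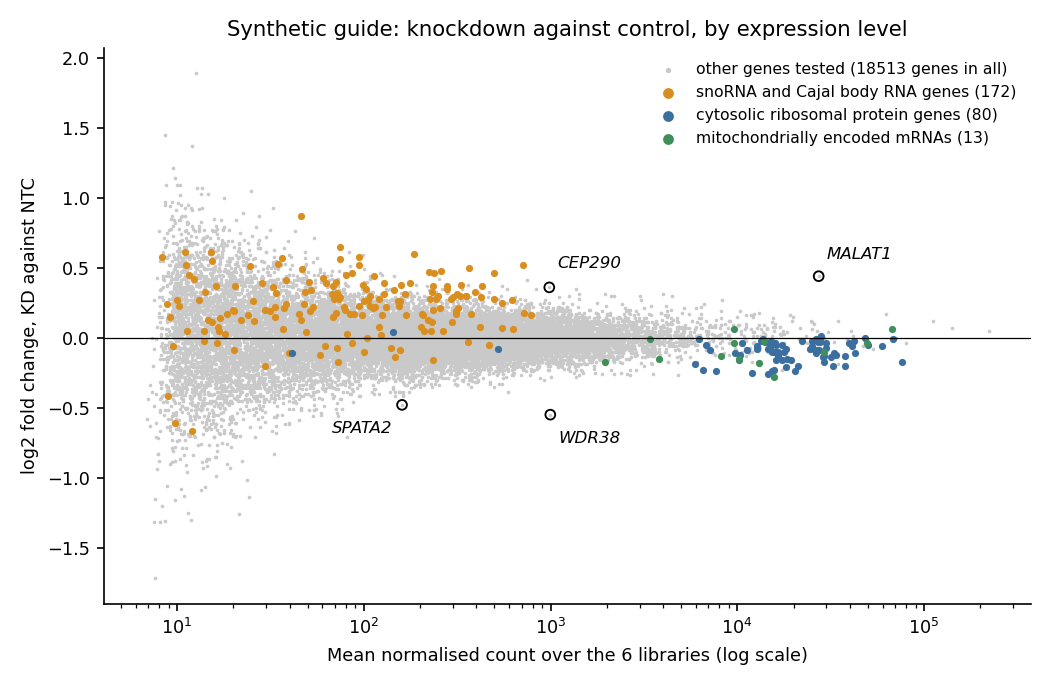
Each point is a gene tested, placed by its mean normalised count over the 6 libraries (log axis) and its log2 fold change of KD against NTC. The snoRNA genes (150 of 172 above 0) and the ribosomal protein genes (77 of 80 below 0) sit on opposite sides of the line, and MALAT1 stands out among highly expressed genes at 0.44.

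MALAT1 rose in KD in the model with the letter. MALAT1 is an abundant long non-coding RNA kept in nuclear speckles. Its gene lies on chromosome 11, 65265159 to 65273987, plus strand (hg19), and its mean level was 560 TPM. The annotated transcript MALAT1-202, of 8708 bases, carries an A-rich tract encoded in the genome, a known feature of this RNA. Bases 8237 to 8369 are shown, with the longest run of A in that region, 13 bases, in capitals.
MALAT1-202: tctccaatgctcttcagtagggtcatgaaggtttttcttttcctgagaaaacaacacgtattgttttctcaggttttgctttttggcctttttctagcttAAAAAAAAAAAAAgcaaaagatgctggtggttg
Its normalised counts were 22775, 31692 and 39642 in KD libraries A, B and C and 15907, 26934 and 26562 in NTC. KD was higher within each letter, by 0.52, 0.23 and 0.58 on the log2 scale, while the groups overlapped because both A libraries were low. Means were 31370 ± 8440 (SD, n = 3) in KD and 23134 ± 6260 in NTC. The log2 fold change of 0.44, a fold of 1.36, had an SE of 0.22 without the letter (DESeq2 adjusted p = 1.0) and 0.09 with it (adjusted p = 0.0115; edgeR with the letter 0.00988). In the model with the letter the adjusted p returned to 1.0 when the A pair (log2 fold change 0.41) or the C pair (0.37) was left out, and was 0.0393 without the B pair (0.55).

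Of 9 listed nuclear or structural long non-coding RNAs, 8 were tested and 6 lay above 0, with a median of 0.11 against 0.000255 over all genes tested. NEAT1, the scaffold RNA of paraspeckles, had normalised counts of 3156, 4465 and 5725 in KD and 2338, 4118 and 4327 in NTC. KD was again the higher library within each letter and the groups overlapped. Its log2 fold change was 0.31 (SE 0.23) without the letter and 0.32 (SE 0.09) with it, short of the adjusted threshold. TUG1 was at 0.16 (SE 0.15) and NORAD, a cytoplasmic RNA that binds Pumilio proteins, at 0.06 (SE 0.21). RMRP, the RNA of RNase MRP, was at -0.92 with an SE of 0.64 at a mean of 9.87 counts in KD and 19.0 in NTC.

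**Figure D2:**
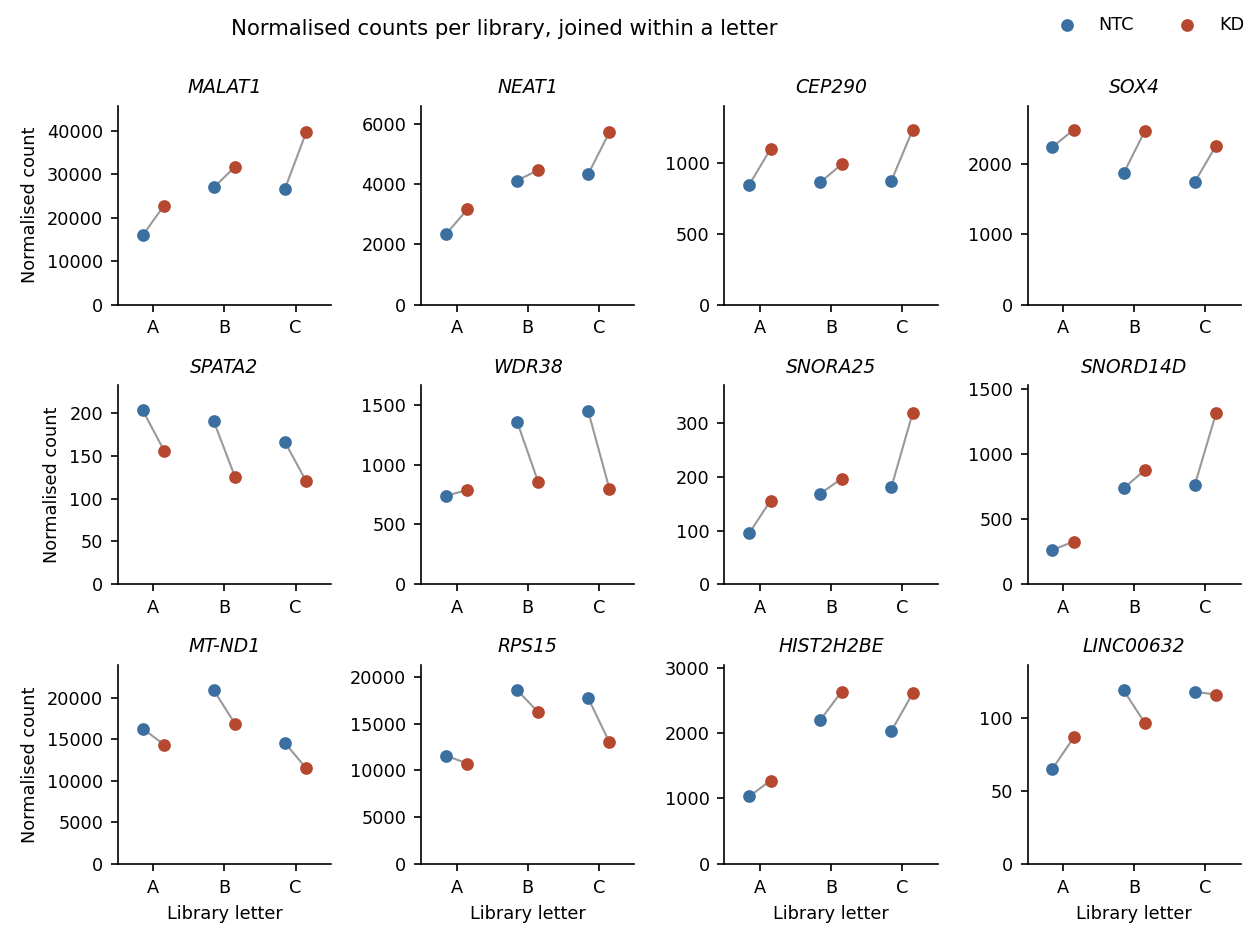
Normalised counts of 12 genes in each library, with NTC in blue and KD in red and a line joining the pair of each letter; every axis starts at 0. MALAT1, NEAT1, SNORD14D and HIST2H2BE are low in both A libraries and higher in KD within each letter, whereas WDR38 is lower in KD for B and C and not for A.

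Most small nucleolar RNAs (snoRNAs) were higher in KD, without a call in DESeq2. These RNAs guide chemical modification of ribosomal RNA, C/D box members directing 2′-O-methylation and H/ACA box members pseudouridylation, and most are cut from introns of host genes. Among 388 listed C/D box genes 91 passed the filter, and 80 of those were above 0, with a median log2 fold change of 0.221. Of 452 H/ACA box and Cajal body RNA genes 81 passed, and 70 were above 0, with a median of 0.24. Over all genes tested, 50.1% were above 0. The letters differed: the C/D median was 0.30 in A, 0.03 in B and 0.36 in C, and the H/ACA median was 0.36, 0.05 and 0.35. In the model with the letter, 17 C/D and 10 H/ACA genes had an unadjusted p under 0.05 in KD's favour and none in the other direction. Over all genes tested these shares were 0.735% and 0.567%. KD was higher in all 3 letters for 78 of the 172 (12.8% of all genes tested) and lower in all 3 for 2 (12.5%). The share of all counts on these genes was 0.142%, 0.208% and 0.272% in KD libraries A, B and C and 0.116%, 0.199% and 0.208% in NTC. Leaving out KD library C brought the joint median from 0.232 to 0.0119 (90 of 172 above 0), and leaving out NTC library A brought it to -0.00908 (84 above 0). Without both libraries of letter A, an alternative added after seeing the data, it was 0.22 and 140 of 172 were above 0.

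The snoRNAs with the largest letter differences included 3 C/D box genes in introns of HSPA8, the constitutive HSP70 chaperone. Whether counted reads were shared between these 3 genes was not tested. Their GENCODE sequences are shown because they are related copies, with the C box letters TGATGA and, where the exact letters CTGA occur near the 3′ end, the D box in capitals.
SNORD14C-201: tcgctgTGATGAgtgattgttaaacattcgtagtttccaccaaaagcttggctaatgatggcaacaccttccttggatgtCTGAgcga
SNORD14D-201: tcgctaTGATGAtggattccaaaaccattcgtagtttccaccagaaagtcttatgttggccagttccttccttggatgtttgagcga
SNORD14E-201: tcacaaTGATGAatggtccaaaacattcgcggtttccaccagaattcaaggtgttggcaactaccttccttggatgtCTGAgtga
Aligned end to end, SNORD14C and SNORD14D were 79.5% identical, SNORD14C and SNORD14E 75.0%, and SNORD14D and SNORD14E 75.9%. SNORD14D (chromosome 11, 122929617 to 122929703, minus strand) had normalised counts of 327, 876 and 1310 in KD and 264, 736 and 758 in NTC. KD library C was the highest and both A libraries were low. Its log2 fold change was 0.52 with an SE of 0.70 without the letter and 0.46 with an SE of 0.13 with it (edgeR with the letter adjusted p = 0.00736). SNORD14C (122930043 to 122930130) had 173, 438 and 671 in KD and 129, 364 and 416 in NTC, and SNORD14E (122928785 to 122928869) had 218, 563 and 940 against 184, 574 and 497. SNORD14C was higher in KD in every letter, and SNORD14E in A and C. HSPA8 itself was at 0.06 (SE 0.19). Of the other snoRNAs that edgeR called with the letter, SNORD21, in an intron of RPL5, had 148, 295 and 456 in KD and 82.7, 293 and 271 in NTC. SNORA7B, an H/ACA member with few counts, had 30.8, 70.5 and 77.1 against 13.4, 46.9 and 37.6. Both were higher in KD in each letter, SNORD21 by 0.01 on the log2 scale in B.

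Most snoRNAs had a higher log2 fold change than the gene that hosts them, given here as a description. A tested host gene on the same strand contained 166 of the 172 tested snoRNA genes, in 97 hosts, of which 30 encode ribosomal proteins. The snoRNA had the higher log2 fold change in 142 of the 166 pairs, and the median of the hosts was -0.02, with 34 of 97 above 0. In RPL13A, at -0.11 (SE 0.16), SNORD32A, SNORD33, SNORD34 and SNORD35A were at 0.37, 0.29, 0.37 and 0.38. In TAF1D, a subunit of an RNA polymerase I factor, at 0.19 (SE 0.14), 8 snoRNAs were tested, from SNORD6 at 0.17 and SNORA8 at 0.18 to SNORA25 at 0.60. SNORA25 (chromosome 11, 93463679 to 93463812, minus strand) had normalised counts of 156, 197 and 320 in KD and 95.3, 169 and 181 in NTC. KD was higher in each letter, and the groups overlapped through the A libraries (DESeq2 adjusted p = 1.0; edgeR with the letter adjusted p = 0.00736). Reads on a snoRNA interval can also come from unspliced host RNA, and the poly(A) selection was not designed for these short RNAs. The part of either was not tested.

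Messenger RNAs of ribosomal proteins and of the mitochondrial genome were mostly lower in KD, by small amounts. Of 83 cytosolic ribosomal protein genes 80 were tested, 77 had a log2 fold change below 0, and the median was -0.0881. No member had an unadjusted p under 0.05 without the letter, and 5 did with it, all lower in KD: RPS15, RPS26, RPS28, RPL28 and RPLP1. Over all genes tested, 0.567% were lower at that p with the letter. RPS15 had normalised counts of 10736, 16218 and 13006 in KD and 11599, 18609 and 17741 in NTC. KD was lower in each letter, by 0.11 in A and most in C, and both A libraries were low. Its log2 fold change was -0.26 (SE 0.19), and -0.25 (SE 0.09) with the letter. The list did not keep its direction across letters: the median was 0.12 in A, with 69 of 80 above 0, -0.11 in B and -0.26 in C. Leaving out NTC library C brought the fitted median to 0.00129 (40 of 80 above 0), and leaving out NTC library A brought it to -0.243 (1 of 80). Leaving out the C pair in the model with the letter gave 0.00586 (42 of 80).

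All 13 mitochondrially encoded messenger RNAs were tested; 11 lay below 0, the median was -0.0991, and the letter medians were -0.12, -0.05 and -0.13. MT-ND1, a core subunit of respiratory complex I, had normalised counts of 14367, 16851 and 11509 in KD and 16300, 20911 and 14583 in NTC. KD was lower within each letter, and NTC library B was the highest. The log2 fold change was -0.28, with an SE of 0.17 without the letter and 0.08 with it. MT-ND6, on the opposite strand of the mitochondrial genome, was at -0.18 (SE 0.16) and MT-ATP6, of the ATP synthase, at -0.15 (SE 0.20). These 3 genes had an unadjusted p under 0.05 with the letter, beside 0.567% of all genes tested that were lower at that p. MT-CO1, of cytochrome oxidase, was at 0.06 (SE 0.14). Without KD library C the list median was 0.0162, and without NTC library A it was 0.0385.

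**Figure D3:**
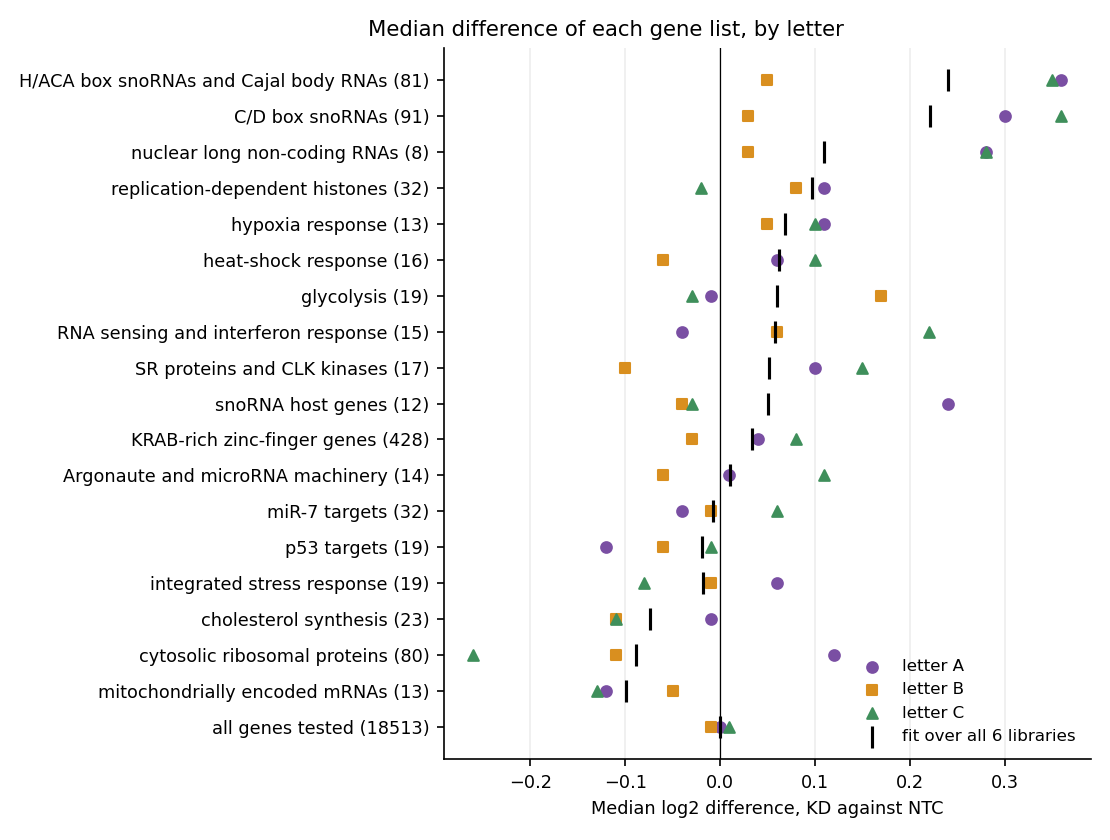
Median log2 difference of KD against NTC for each gene list, computed within letters A, B and C (symbols) and in the fit over all 6 libraries (bar); the number of genes tested stands in brackets. The snoRNA lists are above 0 in every letter and smallest in B, the mitochondrial list is below 0 in every letter, and the ribosomal protein list runs from 0.12 in A to -0.26 in C.

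With a mean of 50 or more normalised counts, the same direction in every letter and an unadjusted p under 0.05, 15 genes were higher and 16 lower. The highest was CCDC122, a coiled-coil protein gene, with normalised counts of 47.2, 75.9 and 78.3 in KD and 30.9, 41.7 and 50.1 in NTC. Only KD library A fell inside the NTC range. Its log2 fold change was 0.71 (SE 0.31). CEP290, a large protein of the ciliary transition zone (chromosome 12, 88442791 to 88535993, minus strand), had 1098, 990 and 1234 in KD and 845, 863 and 874 in NTC. The groups did not overlap, and the NTC libraries lay within a narrow band. The log2 fold change was 0.36 (SE 0.14, DESeq2 adjusted p = 1.0).

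Apart from MALAT1 and SNORA25, the other genes at the higher end differed by 0.30 to 0.42. DYNC2H1, the heavy chain of the dynein of intraflagellar transport, was at 0.30 (SE 0.14). AKAP9, a centrosomal and Golgi scaffold that anchors protein kinase A, was at 0.35 (SE 0.16). ANKRD26 and ANKRD12, ankyrin repeat proteins, were at 0.38 (SE 0.16) and 0.42 (SE 0.18). ESF1, a nucleolar factor of ribosomal RNA processing, was at 0.35 (SE 0.15), LHFPL5, a protein known from hair cells, at 0.37 (SE 0.18) and the unnamed gene RP11-472I20.4 at 0.37 (SE 0.15). SOX4, a transcription factor of progenitor cells, had 2484, 2466 and 2256 in KD and 2237, 1862 and 1738 in NTC. Every KD library was above every NTC library, and the log2 fold change was 0.30 (SE 0.14).

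The gene at the lower end was AC005387.3, annotated as antisense on chromosome 19 (18642423 to 18643442), where reads of an opposite gene cannot be told apart. It had normalised counts of 57.8, 69.4 and 56.6 in KD and 80.2, 105 and 116 in NTC. The groups did not overlap, and the log2 fold change was -0.71 (SE 0.25; edgeR with the letter adjusted p = 0.0446). STX1A, the synaptic SNARE protein syntaxin 1A, was at -0.42 (SE 0.20). TFPT, of the INO80 chromatin remodelling complex, was at -0.42 (SE 0.19) and LIN37, of the DREAM cell cycle complex, at -0.39 (SE 0.19). DPM3, of the dolichol-phosphate mannose synthase, was at -0.33 (SE 0.17). TRAPPC5, of the TRAPP trafficking complex, and CTD-3214H19.16 both were at -0.33 (SE 0.16), and since the genes overlap on the same strand of chromosome 19 their counts are not separate measurements. Among genes of under 100 counts in most libraries, C15ORF37, the antisense gene RP11-524F11.2 and the pseudogene AC016739.2 were at -0.56, -0.54 and -0.51.

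WDR38, a WD-repeat protein gene on chromosome 9 (127615696 to 127620169, plus strand), was singled out after its values were seen, since letter A did not share its direction. Its normalised counts were 786, 850 and 795 in KD and 740, 1359 and 1448 in NTC. The KD libraries and NTC library A were alike, and the other NTC libraries were higher. The log2 fold change was -0.55 (SE 0.21, DESeq2 adjusted p = 1.0) without the letter. With the letter DESeq2 gave -0.49 with a larger SE of 0.29 (unadjusted p = 0.0882), while edgeR gave an adjusted p of 0.00307. The 2 tools thus differed on a gene whose letters differed. Without NTC library A, the control closest to KD, the log2 fold change was -0.79. Leaving out that library widens the difference by construction, so this value is no separate support. Its 3′ end overlaps that of RPL35 (127620159 to 127624260, minus strand), a far more abundant ribosomal protein gene at 2400 TPM against 130 TPM, and without strand information reads at the overlap cannot be told apart. RPL35 was at -0.24 (SE 0.18), with letter differences of 0.08, -0.17 and -0.58 beside 0.09, -0.68 and -0.87 for WDR38.

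GC content moved with the direction of the difference. The 26 genes higher in KD at an unadjusted p under 0.05 had a median GC content of 40.2% and a median exon length of 4491 bases, and the 29 lower had 57.4% and 1886 bases, where all genes tested had 48.7% and 3939 bases. Of the 26 higher genes, 17 lay in the lowest quintile of GC content and 0 in the highest. Of the lower genes, 0 lay in the lowest quintile and 13 in the highest. The median log2 fold change over all genes ran from 0.0645 in the lowest quintile to -0.0671 in the highest. This order was present in letter A (0.0955 to -0.0871) and in letter C (0.183 to -0.199) and was turned round in letter B (-0.0884 to 0.0745). Across 18151 genes, which are not independent replicates, Spearman's rho of the difference with GC content was -0.30 in A, 0.27 in B and -0.47 in C. With GC content taken out per library, 21 of the 26 higher genes and 19 of the 29 lower had p under 0.05, 2 of the latter having no GC value. These genes had been chosen for that p in the same counts, so the numbers kept do not measure the part of GC content, which was not tested. With GC content taken out, the median of the snoRNA lists was 0.22 and that of the ribosomal protein genes -0.0844.

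**Figure D4:**
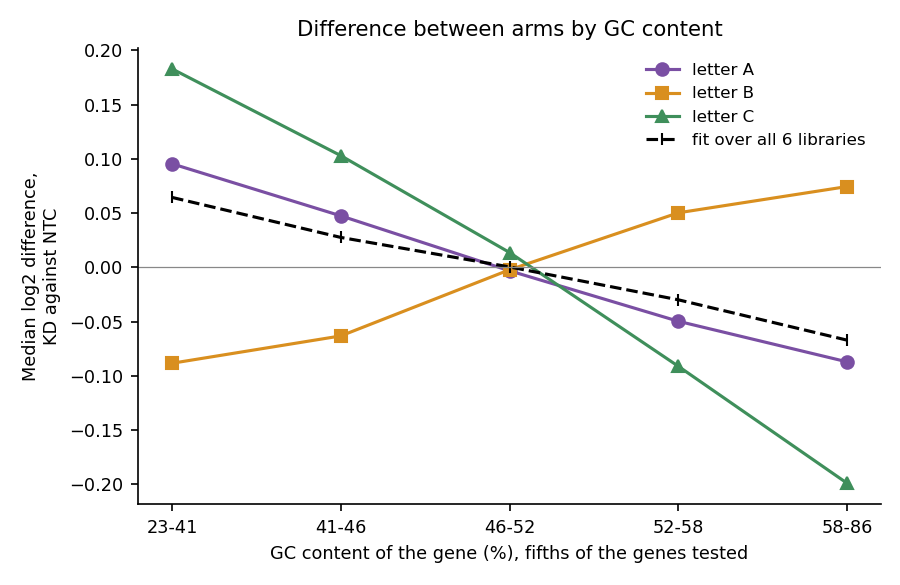
Median log2 difference of KD against NTC in quintiles of the genes tested by GC content, for each letter and for the fit over all 6 libraries (dashed). Letters A and C fall with GC content, from 0.183 to -0.199 in C, and letter B rises from -0.0884 to 0.0745.

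Messenger RNAs targeted by miR-7 showed no common direction. All 32 listed targets were tested, 16 lay above 0 and 16 below, and the median log2 fold change was -0.00779. Letter medians were -0.04, -0.01 and 0.06. One end of the list was SPATA2, an adaptor of the deubiquitinase CYLD in NF-kB signalling (chromosome 20, 48519928 to 48532045, minus strand), whose 3′ UTR holds 2 exact 8-base matches to miR-7. The match at UTR position 857 is shown with the matching bases in capitals.
SPATA2: ccctgggttctttaGTCTTCCA
SPATA2 had normalised counts of 156, 125 and 120 in KD and 203, 190 and 166 in NTC. Every KD library was below every NTC library, and the log2 fold change was -0.48 (SE 0.20, DESeq2 adjusted p = 1.0). At the other end FOS, an immediate early transcription factor, ran from 91.1 in NTC library A to 283 in KD library C and was higher in KD in each letter. Its log2 fold change was 0.38 (SE 0.51), and 0.39 (SE 0.18) with the letter. EGFR was at 0.24 (SE 0.23) and IRS2 at -0.14 (SE 0.21). PFN2, an actin regulator, was at 0.13 (SE 0.15) and SP1 at -0.03 (SE 0.24).

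Genes chosen by sequence alone also lay on both sides of 0. A 3′ UTR with the letters GTCTTCCA, the reverse complement of miR-7 bases 2 to 8 followed by A, was found for 787 genes, of which 629 were tested. Their median log2 fold change was 0.0122 and 339 were above 0, beside a median of -0.00471 over 13525 protein-coding genes. A match is a description and not a measured site. In the network around CDR1as, Cyrano (OIP5-AS1) was at 0.06 (SE 0.17) and HNRNPK, whose gene hosts a copy of miR-7, at 0.07 (SE 0.12). CHPF2, next to the miR-671 gene, was at -0.19 (SE 0.26). Of 14 Argonaute and microRNA processing genes, 8 were above 0, the median was 0.0101 and none had p under 0.05 in either fit. AGO2 was at -0.03 (SE 0.20), DICER1 at 0.02 (SE 0.24) and DROSHA at 0.00 (SE 0.13).

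Genes of RNA sensing and cellular stress gave no call. Of 30 genes of RNA sensing and the interferon response, 15 passed the filter, 10 were above 0, and the median was 0.0579. DDX58, which encodes the RNA sensor RIG-I, had a log2 fold change of 0.37 (SE 0.32) and EIF2AK2, the kinase PKR, of 0.26 (SE 0.16). ISG15 was at 0.11 (SE 0.30) and IFIT1 at 0.14 (SE 0.34), at mean normalised counts of 47.0 and 35.1 in KD. Of 12 NF-kB response genes only 4 passed the filter, with a median of -0.0478. Of 19 genes of the integrated stress response 8 were above 0 (median -0.0182), and of 19 p53 targets 8 (median -0.0191). PPP1R15A, a phosphatase subunit that ends the stress response, was at 0.20 (SE 0.23), and at 0.18 (SE 0.09) with the letter. Heat-shock genes had a median of 0.0624, with HSPH1 at 0.15 (SE 0.15) and HSPB1 at -0.24 (SE 0.20; with the letter -0.23, SE 0.10). The 17 genes of the unfolded protein response had a median of -0.0313, and 9 of 10 NRF2 targets were tested, with a median of 0.0228. Of 17 immediate early genes 15 were tested, with a median of -0.0354, and DUSP1, a MAP kinase phosphatase, was at 0.25 (SE 0.23; with the letter 0.24, SE 0.11).

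Metabolic and proliferation genes gave no call either. Cholesterol synthesis genes had a median of -0.0743, with 6 of 23 above 0. MVD, of the mevalonate pathway, was at -0.25 (SE 0.16; with the letter -0.25, SE 0.12). Glycolysis genes had a median of 0.0601, with 15 of 19 above 0, but the letter medians were -0.01, 0.17 and -0.03, and the fitted median was -0.0622 without KD library B and -0.0488 without NTC library A. LDHA was at 0.15 (SE 0.14) and GAPDH at -0.00 (SE 0.19). Of 15 hypoxia genes 13 were tested and 11 were above 0 (median 0.0682; -0.0534 without KD library C and -0.0889 without NTC library A). The 15 S phase genes had a median of 0.00197 and the 14 mitosis genes of 0.00329. The kinetochore genes CENPE and CENPF were at 0.25 (SE 0.18) and 0.22 (SE 0.16), and the replication licensing factor CDT1 was at -0.17 (SE 0.15). All 3 had an unadjusted p under 0.05 with the letter, where 0.735% of all genes tested were higher and 0.567% lower at that p. In letter B each of the 3 differed by 0.0 after rounding.

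Replication-dependent histone genes, whose main transcripts end in a stem-loop and not in a poly(A) tail, had a median of 0.0968, with 22 of the 32 tested of 86 above 0. It was -0.0875 without KD library C and -0.177 without NTC library A. HIST2H2BE had normalised counts of 1274, 2633 and 2607 in KD and 1031, 2198 and 2032 in NTC. KD was higher in each letter, and the A libraries of both arms were less than the lowest of the other 4. The log2 fold change was 0.31, with an SE of 0.46 without the letter and 0.09 with it. HIST1H4E, at 0.59 (SE 0.35), and HIST1H3H, at 0.32 (SE 0.61), were higher in KD in each letter too. The list of KRAB-rich zinc-finger genes took all 545 genes with a numbered ZNF symbol, whether or not they carry a KRAB domain. Of these, 428 were tested, 245 were above 0, and the median was 0.0335. ZNF518A, at 0.29 (SE 0.16), and ZNF219, at -0.33 (SE 0.17), were the list members with an unadjusted p under 0.05 with the letter. That is 1 higher and 1 lower of 428, where 0.735% of all genes tested were higher and 0.567% lower at that p. SR splicing factors and their CLK kinases had a median of 0.0513, with 12 of 17 above 0, and 12 long non-coding hosts of snoRNAs had a median of 0.0501. SNHG15 among the latter was at 0.20 (SE 0.43; with the letter 0.21, SE 0.08).

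Library letter separated the samples more than the knockdown did. The first principal component held 53.9% of the variance and placed both A libraries far on one side, NTC A at 35.0, with the other 4 libraries between -20.8 and -10.7. The second, with 18.4%, set KD library C apart, at 27.7 against -12.5 to 3.9 for the other 5. A likelihood ratio test of the letter with the arm kept in the model called 1711 genes (9.24% of genes tested), and A was the lowest letter in 863 and the highest in 841. Without letter A no gene differed between B and C in this test. What the letters stand for is not given in the sources used here.

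The gene with the widest spread between letters among those with a mean of at least 200 counts was GADD45B, a stress-induced growth arrest gene. It had normalised counts of 459, 1527 and 1740 in KD and 365, 1277 and 1573 in NTC. Both A libraries were lowest, and the letter means spanned 2.01 on the log2 scale (adjusted p = 3.6e-53, DESeq2). The other 9 were snoRNA genes: SNORA66, SNORD14C, SNORD14E, SNORD14D, SNORD60, SNORD101, SNORA33, SNORD21 and SNORD32A, which spanned 1.62 to 1.89.

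Several lists held a larger share of genes called for the letter than the 9.24% over all genes tested. Of the ribosomal protein genes tested, 60 of 80 were called for the letter, all lowest in A. Of the snoRNA genes, 88 of 172 were called, again all lowest in A, and the letter A mean lay 0.85 below the mean of B and C at the median. Histone genes gave 17 of 32, glycolysis genes 12 of 19 and hypoxia genes 6 of 13, all lowest in A. ADM, a hypoxia-induced peptide hormone gene, spanned 1.39 (adjusted p = 4.11e-12), and HSPA6, a strictly inducible HSP70, spanned 2.62 (adjusted p = 8.37e-12), at 17.3 in KD A and 22.6 in NTC A against 107 to 136 in the rest. Higher in A were DICER1, at 1272 and 1234 against 685 to 816, and the p53 target TP53INP1, at 319 and 367 against 131 to 207. Mitochondrial messenger RNAs were called in 8 of 13, with A the highest in 6, MT-ATP8 spanning 0.81 from A down to C.

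**Figure D5:**
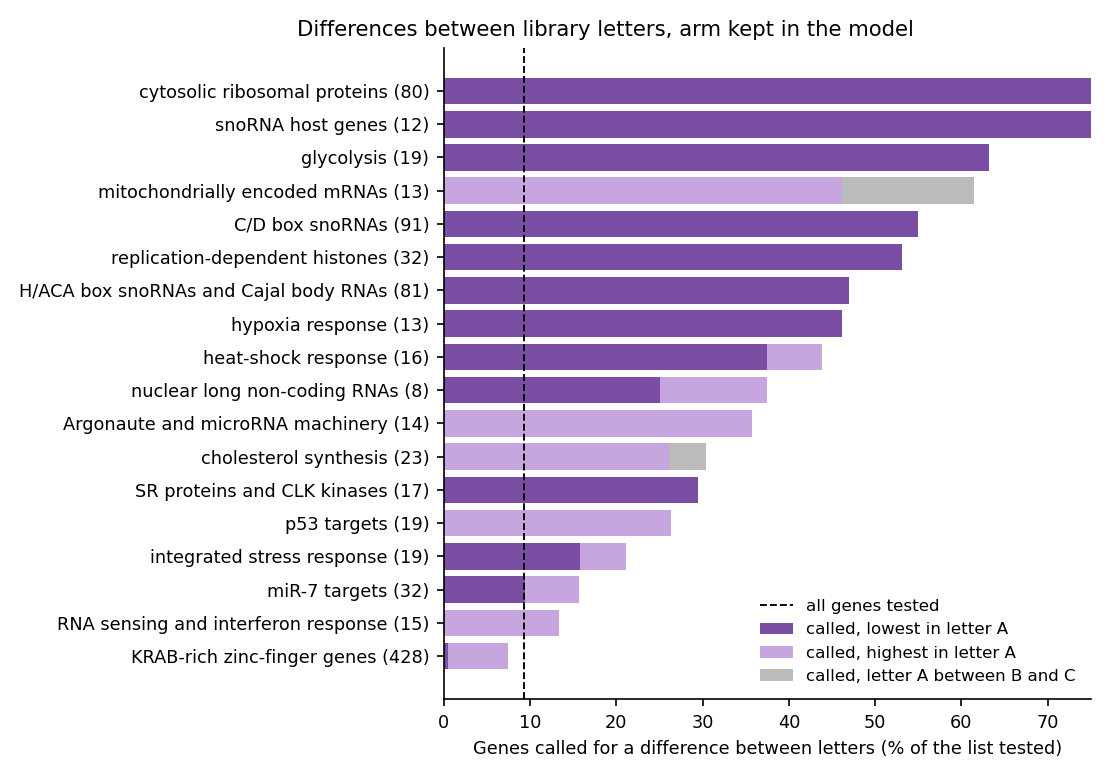
Share of each gene list called for a difference between letters A, B and C in a model that keeps the arm, split by whether letter A was lowest, highest or between; the dashed line is the share over all genes tested, 9.24%. Ribosomal protein, snoRNA, histone, glycolysis and hypoxia genes called are all lowest in A, while called Argonaute pathway and p53 target genes are highest in A.

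Against the other setups, no gene was called for a difference in its KD effect. In a model of all 24 libraries, which tested 20172 genes, the difference between the synthetic guide effect and that of agoshRNA, gRNA or pre-gRNA gave 0 calls each with DESeq2 and with edgeR (percent called 0.0). At an unadjusted p under 0.05 DESeq2 gave 29 (0.144%), 45 (0.223%) and 29 (0.144%) genes. When letters were nested in setups in the model there were again 0 calls in each, with 378 (1.87%), 581 (2.88%) and 111 (0.55%) genes at an unadjusted p under 0.05. In that model without the letter, the 172 snoRNA genes had a median log2 fold change of 0.25 for the synthetic guide (152 above 0), -0.04 for agoshRNA (74), 0.01 for gRNA (89) and 0.12 for pre-gRNA (122). Ribosomal protein genes had medians of -0.07, -0.03, 0.21 and -0.10, and mitochondrial messenger RNAs of -0.09, 0.01, 0.07 and 0.19, in the same order. MALAT1 was at 0.45 for the synthetic guide and at 0.01, 0.12 and 0.10 (SE 0.81 each) for agoshRNA, gRNA and pre-gRNA. The SE of each MALAT1 difference between setups was 1.14, where the fit of the synthetic guide libraries alone gave an SE of 0.22. WDR38 was at -0.53 beside 0.07, 0.49 and -0.29 (SE 0.41 each), with an SE of 0.58 for each difference. With letters nested in setups, the unadjusted DESeq2 p of the MALAT1 differences was 0.00354, 0.0945 and 0.105 in the same order. For WDR38 it was 0.0562, 0.000994 and 0.475. Without the letter, the median SE of the synthetic guide effect in this model was 0.427 over 18513 genes and 0.579 over the snoRNA genes. In the fit of the synthetic guide libraries alone the median SE was 0.205. The SEs given for the model of all 24 libraries are those without the letter. The absence of calls, with or without nested letters, does not show that the setups had the same effect. The differences in list medians were not tested.

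The authors' deposited table for this comparison held a p-value for 43760 genes. In it 104 had p under 0.05 (0.238%), and the smallest adjusted p was 1.0. Of those 104 genes, 28 passed the count filter used here and 15 also had p under 0.05 here. The authors' deposited table gave MALAT1 a log2 fold change of 0.49, LINC00632 of 0.07 and CDR1 of -0.52.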

How the data were processed

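Per the submitters' processing notes, Trim Galore, STAR 2.7.3a, featureCounts and DESeq2 were used with hg19. Counting settings and annotation are not given in the sources used here. The deposited table holds raw counts per gene for 24 libraries and, per the file headers, the authors' log2 fold change and p-value columns for this comparison. Its 24 columns of normalized counts were not used.

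Genes that reached 10 counts in 3 or more libraries were tested with DESeq2 1.42.0 (Wald test of KD against NTC, Benjamini-Hochberg adjustment, no independent filtering). edgeR 4.0.16 quasi-likelihood tests and limma 3.58.1 voom were alternatives (R 4.3.3), as were the letter as a replicate block, GC offsets, other filters and left-out libraries. The code was tested on simulated data. Normalised counts are counts over DESeq2 size factors; differences within a letter used a pseudocount of 0.5. Gene type, GC content and UTRs came from GENCODE 29 by gene (93.2% matched), and coordinates from the deposited table.

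The letters met the pairing rule (r over 0.1 in each pair): deviations from the group means correlated at 0.7, 0.35 and 0.32 within letters A, B and C. Across letters, r was 0.33 for KD B with NTC C, 0.20 for KD C with NTC B and -0.54 to -0.36 for pairs with an A library, so that B and C were hardly told apart. The numbers in the sample titles are not tied to letters. Named genes are the targeted locus, genes with adjusted p under 0.05 with or without the letter, the 12 highest and 12 lowest log2 fold changes (p under 0.05, mean of at least 50, same sign in every letter), list members with p under 0.05 in either fit, and, for the letter, the 10 widest spreads and the widest called member of each list. Members and lists were chosen with earlier results of these data known. The other list members named, HSPA8, RPL13A, TAF1D, RPL35, WDR38 and RP11-245J9.6 were chosen after their values were seen. A few named genes and list members are not reported here.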

Additional observations from a re-analysis of the deposited data

How the results depend on the processing

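No gene was called with edgeR, limma-voom, TMM factors, other filters, protein-coding genes alone, GC offsets and the model of all 24 libraries with or without the letter. The call count was 1 with the replicate block, 1 with the replicate block and GC offsets, 9 with the replicate block in edgeR and 1 without both libraries of letter A (WDR38; an alternative added after seeing the data), and leaving out libraries or letter pairs gave 0 to 1. The 55 genes at an unadjusted p under 0.05 became 176 with edgeR, 171 with limma-voom, 241 with the replicate block, 1134 with the block in edgeR, 201 with the block and GC offsets, 170 without letter A and 172 with the block in the model of all 24 libraries, and leaving out libraries or pairs gave 14 (without KD library C) to 329 (without NTC library A). The letter effect gave 4621 calls with edgeR, and leaving out a letter gave 0 (without A) to 1080, with 698 without B. LINC00632 turned to 0.04 with limma-voom, 0.02 with the replicate block, 0.01 with the block in edgeR, 0.03 with the block and 0.00 without it in the model of all 24 libraries, and ranged from -0.25 to 0.19 with libraries left out. CDR1 ranged from -0.73 to 0.12. Of 81 other named genes, 69 kept their direction in every alternative run and 12 turned with KD B, KD C or NTC A left out: SNHG15 (-0.06 to 0.44), MT-ATP6 (-0.37 to 0.06), SNORD38A (-0.01 to 0.61), SNORD73A (-0.04 to 0.46), SNORD101 (-0.03 to 0.81), SNORD18B (-0.09 to 0.95), SNORD33 (-0.06 to 0.66), SNORA73B (-0.03 to 0.58), SNORA66 (-0.06 to 0.83), SNORA33 (-0.09 to 0.72), HIST1H3H (-0.02 to 0.65) and HSPA8 (-0.10 to 0.22). The cause was not tested. Most of the 81 genes were named for an unadjusted p under 0.05 in these same libraries. Their kept direction is therefore no separate support. The median of 22 of the 26 gene lists changed sign with 1 library left out, and that of 23 with a library or a letter pair left out. The C/D box snoRNA (lowest 0.00205), nuclear long non-coding RNA (0.0387 to 0.246) and NF-kB lists did not. Over all alternative runs the NF-kB median, of 4 genes tested, ranged from -0.132 to 0.0359, and so did not keep its sign throughout. With 3 libraries a group and a median SE of 0.205, small differences were not detectable.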
